A study of Mus musculus with 16 samples.

Results

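The 51 genes described here belong to the lysosomal system. They encode 23 soluble hydrolases, 2 sphingolipid activator proteins, 9 membrane proteins and 3 transmembrane proteins of the neuronal ceroid lipofuscinosis (CLN) group. The other 14 are V-ATPase genes. They were taken by symbol from a list of lysosomal genes without the cathepsins, and all 51 were found among the 55404 genes of the table. RNA of the whole brain had been sequenced from 8 Tecpr2 ki/ki mice and 8 wt/wt mice at 5 months of age, none of them treated. The knock-in mice are homozygous for Tecpr2 L1152fs, a frameshift that was put into the germ line of C57BL/6J mice by CRISPR/Cas9, so that every cell carries it. The wt/wt mice are wild type at Tecpr2, and the sources used here do not say from how many founders the knock-in line came. Each value is a normalized value per gene and mouse, proportional to reads, that the authors had rounded to whole numbers. The series asks what happens to the endolysosomal system without functional TECPR2, and the comparison of these genes gives the transcript side of it in whole brain.

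Lysosomes break down material from endocytosis and autophagy. Soluble hydrolases work in the acidic lumen, the V-ATPase pumps the protons that acidify it, and heavily glycosylated membrane proteins line it. Many genes of this system share a palindromic promoter element that contains the E-box CACGTG, and the transcription factors TFEB and TFE3 are known to raise their transcription through it when lysosomal function is strained. Loss of single members causes lysosomal storage diseases, many of which affect the brain.

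Tecpr2 itself was lower in every knock-in mouse: the 8 ki/ki values ran from 274 to 320 (median 298.5) and the 8 wt/wt values from 928 to 1002 (median 968.5). Its log2 fold change was −1.68 ± 0.036 (SE; limma, Benjamini-Hochberg adjusted p = 2.16e-47). Markers of neurons, astrocytes and oligodendrocytes were all present, none of them at 0 in any mouse. Reads on genes, estimated from the rounded values, lay between 9.23 and 15.39 megareads per mouse. Mouse 3 of each genotype tended to high values: the ki/ki mouse 3 had the highest value of its genotype for 24 of the 51 genes and the wt/wt mouse 3 for 19 of 51. For Laptm5, Hexa, Cd68 and the class directions that moved with these mice, values without them are given.

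The promoter letters show which of the 51 genes hold the E-box near their start. RefSeq promoter windows of GRCm38.p6, from 250 bases before to 50 bases after the annotated start, were found for 44 of the 51 genes. These were 50 windows, and a gene was counted when any of its windows held a match. CACGTG, which is its own reverse complement and so was searched on both strands at once, stood in the windows of 13 of 44 genes (29.5%). Of all 27025 genes with a window 8.09% had it, and of the 17491 protein-coding genes 8.91%. These were the hydrolase genes Arsa, Gaa, Gla, Glb1, Lgmn, Naglu and Sgsh, the membrane protein genes Lamp1 and Mcoln1, the CLN gene Cln3, and the V-ATPase genes Atp6v0b, Atp6v0d1 and Atp6v1a. The longer palindrome TCACGTGA, which contains CACGTG, stood in the windows of 5 of 44 genes (11.4%) against 1.12% of all genes. These shares describe the windows only, and a match is not a shown binding site. The stretches below are from the 5 genes with the longer palindrome and from Lamp1, whose window held the most matches, and then, without a match, from Laptm5 and Hexa, the 2 members with the smallest p in the comparison of genotypes. Each is read 5′ to 3′ on the strand of its gene, with CACGTG in capitals.
Gla, chrX:134601174-134601252, minus strand: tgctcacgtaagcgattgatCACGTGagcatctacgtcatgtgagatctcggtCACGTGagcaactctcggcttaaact
Mcoln1, chr8:3500428-3500499, plus strand: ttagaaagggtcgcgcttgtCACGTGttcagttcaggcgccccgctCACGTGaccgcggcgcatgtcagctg
Cln3, chr7:126583332-126583405, minus strand: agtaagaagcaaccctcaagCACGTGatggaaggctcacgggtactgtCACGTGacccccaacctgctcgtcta
Atp6v0d1, chr8:105566055-105566087, minus strand: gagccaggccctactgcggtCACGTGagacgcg
Atp6v1a, chr16:44139365-44139410, minus strand: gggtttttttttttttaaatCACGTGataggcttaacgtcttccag
Lamp1, chr8:13159080-13159170, plus strand: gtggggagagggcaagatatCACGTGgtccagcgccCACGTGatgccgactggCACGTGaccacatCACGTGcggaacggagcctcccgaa
Laptm5, chr4:130913236-130913325, plus strand: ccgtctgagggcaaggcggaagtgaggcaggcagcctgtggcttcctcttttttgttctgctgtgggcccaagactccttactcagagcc
Hexa, chr9:59539460-59539549, plus strand: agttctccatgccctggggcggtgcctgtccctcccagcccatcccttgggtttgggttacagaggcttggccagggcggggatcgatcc

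All 20 matches began upstream of the start, 14 of them within 100 bases of it. Lamp1 had 4 matches between 61 and 15 bases before its start. The GC box GGGCGG was searched on both strands and can overlap CACGTG by 1 base at most. It stood in the windows of 31 of 44 genes (70.5%), against 38.2% of all genes and 49.2% of protein-coding genes. Hexa held it, and Laptm5 did not.

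**Figure D1:**
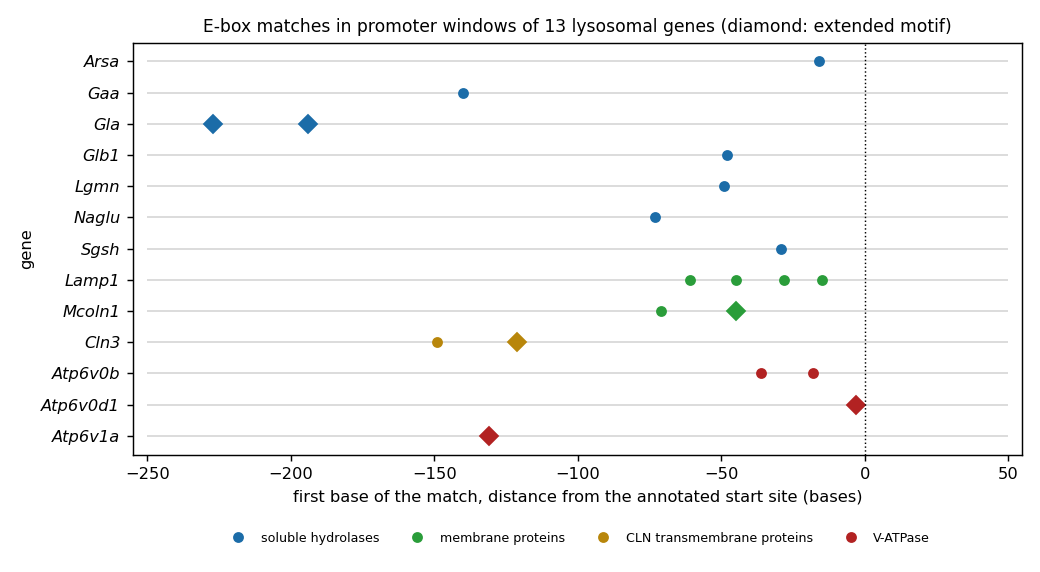
Position of CACGTG in the promoter windows of the 13 lysosomal genes that hold it. The x axis gives the distance of the first base of each match from the annotated start (dotted line, in bases), each row is a gene, colour marks the class, and diamonds mark matches within TCACGTGA. All 20 matches begin before the start, 14 of them within 100 bases.

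In the comparison of genotypes, lysosomal transcripts of whole brain differed little. None of the 51 genes passed an adjusted p of 0.1, where 31 of 23244 genes tested did (0.133%), and none had an unadjusted p under 0.01, where 362 genes did (1.56%). At an unadjusted p under 0.05, 2 of 51 passed, Laptm5 and Hexa, both with higher values in ki/ki, against 6.08% of all genes (3.07% higher, 3.01% lower). By the exact two-sided permutation test of the 16 values, 3 of 51 members had a p under 0.05, Laptm5 (0.0106), Hexa (0.0401) and Tpp1 (0.0497), against 5.77% of all genes. No member had genotypes without overlap, which 0.086% of all genes did. The adjusted p of the members ran from 0.714 to 1. Fold changes ran from −0.17 (Cln6) to 0.26 (Laptm5) on the log2 scale.

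Values were higher in ki/ki for 29 members and lower for 22, with a median log2 fold change of 0.0050 (32 and 19 with libraries scaled to equal totals, 34 and 17 after quantile normalization), where 49.5% of all genes were higher and their median was −0.00098. These counts moved with mouse 3 of each genotype: without the ki/ki mouse 3 there were 25 higher and 26 lower (median −0.00095), and without the wt/wt mouse 3 there were 35 and 16 (median 0.015). The 95% interval of the fold change lay wholly within ±0.1 on the log2 scale, that is between −6.7% and 7.18%, for 26 of 51 members and for 17.1% of all genes. The SE of the members ran from 0.018 (Ids) to 0.10 (Galns), with a median of 0.0365 against 0.0889 for all genes tested. A small SE makes an interval within ±0.1 more likely, so these 2 shares do not compare the sizes of the changes. The 51 genes together made up 0.578% to 0.608% of all values in ki/ki and 0.573% to 0.595% in wt/wt. Because RNA came from whole brain, fewer cells of a type and less RNA per cell cannot be told apart in any of these values. The study found its lesions in a part of the medulla. A change confined to such a region could be diluted in whole-brain values, and single regions were not tested.

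**Figure D2:**
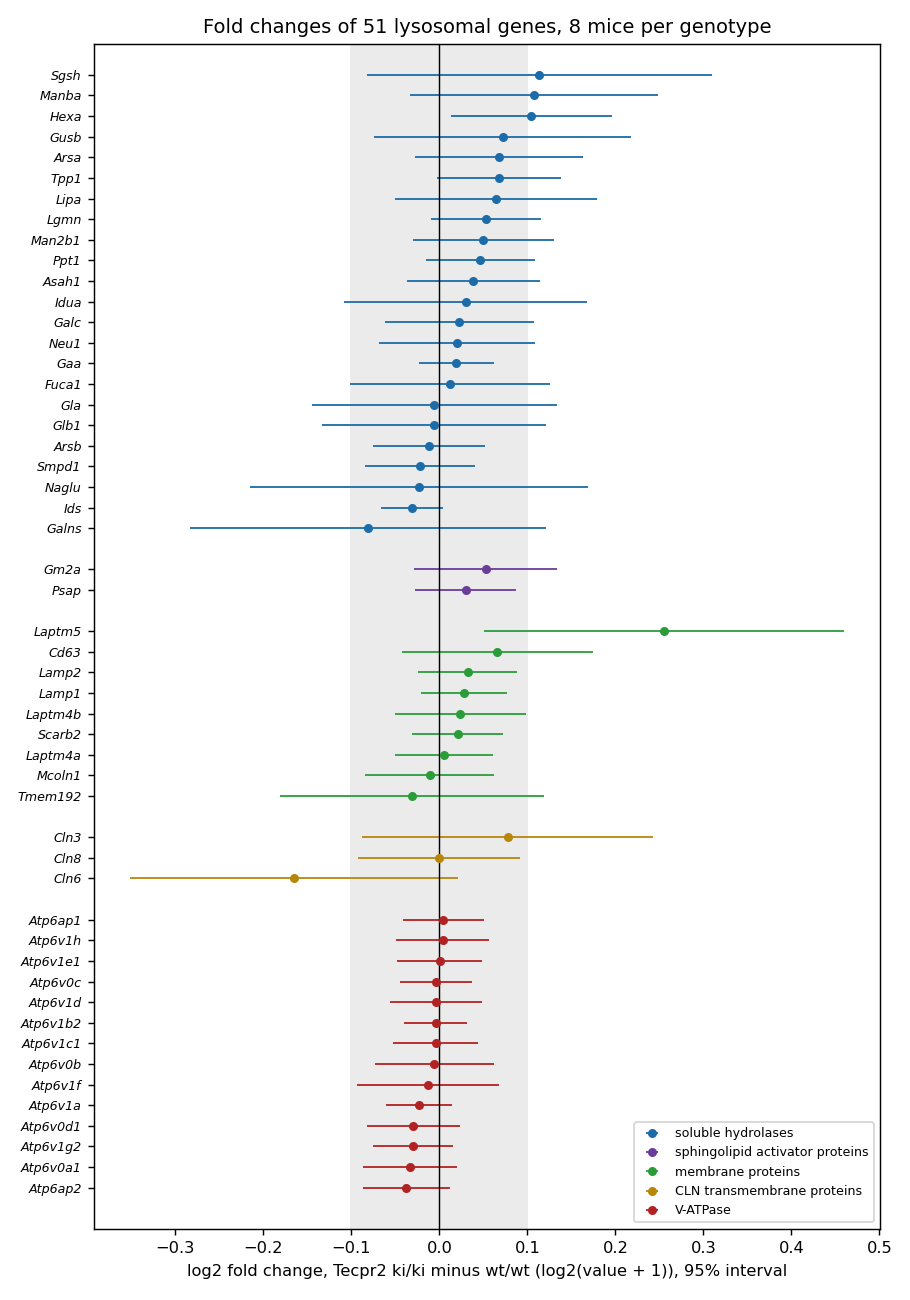
Log2 fold change between Tecpr2 ki/ki and wt/wt for the 51 genes, by class and sorted within it. Points are limma estimates on log2(value + 1), bars their 95% intervals (8 mice per genotype), and the grey band marks ±0.1. All 14 V-ATPase intervals lie within the band, and the intervals of Laptm5 and Hexa lie above 0.

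The soluble hydrolases were higher in ki/ki for 16 genes and lower for 7, with a median log2 fold change of 0.030. Of the 23 intervals 4 lay within ±0.1. Hexa encodes the alpha subunit of beta-hexosaminidase, the enzyme that removes the terminal sugar of the ganglioside stored in Tay-Sachs disease. Its ki/ki values were 355, 367, 374, 365, 367, 369, 356 and 338, and its wt/wt values were 370, 302, 319, 321, 353, 378, 338 and 314. All 8 ki/ki mice lay above the wt/wt median of 329.5, yet the highest mouse of all was wt/wt, and the genotypes overlapped. The difference was 0.10 ± 0.046 on the log2 scale (SE; limma p = 0.0261, adjusted p = 0.765; exact permutation p = 0.0401), or 7.52% (95% interval 0.892% to 14.6%). Without mouse 3 of both genotypes it was 0.087 (limma adjusted p = 0.902). Of the exon bases of Hexa, 12.8% overlap Tmem202 on the other strand, and the strand setting of the counting is not given in the sources used here.

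Tpp1, a lysosomal tripeptidyl peptidase whose loss causes a childhood neuronal ceroid lipofuscinosis, ran from 598 to 677 in ki/ki (median 633) and from 568 to 637 in wt/wt (median 615). Here 3 of 8 ki/ki mice exceeded every wt/wt mouse, and the log2 fold change of 0.068 ± 0.035 had a limma p of 0.0578 (adjusted p = 0.839). Ppt1, the palmitoyl-protein thioesterase of a related disease, differed by 0.047 ± 0.031 and Lgmn, an asparaginyl endopeptidase that activates other proteases, by 0.053 ± 0.031, neither passing the test.

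Estimates for the following enzymes of heparan sulfate breakdown lay on both sides of 0, and none passed the test. Sgsh, the sulfamidase, had the highest estimate among the hydrolases and also the lowest level: ki/ki ran from 58 to 92 (median 73.5), wt/wt from 59 to 81 (median 64). Its log2 fold change of 0.11 ± 0.098 (limma adjusted p = 0.917) was smaller than the spread between mice could resolve. Ids, the iduronate sulfatase lost in Hunter syndrome, lay at the other end of abundance with 4982 to 5305 in ki/ki (median 5156) and 5009 to 5463 in wt/wt (median 5246). Its value of −0.031 ± 0.018 (adjusted p = 0.875) has a 95% interval from −4.53% to 0.278%. Naglu, the N-acetylglucosaminidase of the same pathway, was at −0.023 ± 0.096 and Idua, the iduronidase, at 0.030 ± 0.069. Galns, which removes sulfate from keratan sulfate, had the lowest estimate of the class, with ki/ki from 47 to 78 (median 68), wt/wt from 55 to 85 (median 72.5), and a log2 fold change of −0.081 ± 0.10 (adjusted p = 0.951).

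Among enzymes of sphingolipid breakdown, estimates lay on both sides of 0. Arsa, the arylsulfatase that degrades myelin sulfatide, was at 0.068 ± 0.048 and Asah1, acid ceramidase, at 0.039 ± 0.038. Galc, the galactosylceramidase whose loss causes Krabbe disease, was at 0.023 ± 0.042. Smpd1, acid sphingomyelinase, was at −0.022 ± 0.031, Glb1, acid beta-galactosidase, at −0.0063 ± 0.064 and Gla, alpha-galactosidase, at −0.0058 ± 0.070. Neu1, the sialidase, was at 0.020 ± 0.044. None of these passed the test. Of the exon bases of Arsa 18.75% overlap another gene on the other strand, and of Sgsh 21.6%.

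The other hydrolases follow by their substrates. Man2b1 and Manba, which cut mannose from glycoproteins, were at 0.050 ± 0.040 and 0.11 ± 0.070, and Fuca1, which removes fucose, at 0.012 ± 0.057. Gaa, which degrades glycogen, was at 0.019 ± 0.021, with an interval from −1.6% to 4.37%. Gusb, beta-glucuronidase, was at 0.072 ± 0.073 and Arsb, which desulfates dermatan and chondroitin sulfate, at −0.012 ± 0.032, with 39.9% of its exon bases under genes of the other strand. Lipa, the acid lipase of cholesteryl esters and triglycerides, was at 0.064 ± 0.058. The mice of both genotypes overlapped for each of these 7 genes.

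The 2 activator proteins, which present lipids to these enzymes, both had higher means in ki/ki without passing the test. Psap, the precursor of the saposins, had ki/ki values from 11005 to 12743 (median 11719.5) and wt/wt values from 11173 to 12095 (median 11330), a log2 fold change of 0.030 ± 0.027 (limma adjusted p = 0.923). Gm2a, which lifts gangliosides out of the membrane for their breakdown, ran from 589 to 731 in ki/ki and from 555 to 692 in wt/wt, with 0.053 ± 0.040 (adjusted p = 0.902).

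The membrane proteins were higher in ki/ki for 7 genes and lower for 2, with a median log2 fold change of 0.024. Laptm5, a lysosomal membrane protein made mainly by blood-derived immune cells and, in brain, by microglia, had the highest estimate of all 51 genes. Its ki/ki values were 732, 617, 980, 686, 561, 695, 688 and 589, and its wt/wt values were 536, 653, 534, 597, 538, 620, 584 and 535. Here 5 of 8 ki/ki mice exceeded every wt/wt mouse, and the ki/ki mice at 561, 589 and 617 lay within the wt/wt range. The difference was 0.26 ± 0.096 on the log2 scale (limma p = 0.0182, adjusted p = 0.714; exact permutation p = 0.0106), or 19.3% (95% interval 3.55% to 37.6%). Without mouse 3 of both genotypes it was 0.17 (limma adjusted p = 0.744). The estimate without only the ki/ki mouse 3 was 0.18 (limma adjusted p = 0.556).

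Microglial markers were higher in ki/ki in the same brains. Of 10 homeostatic microglia markers, 9 had higher means in ki/ki. None had an adjusted p under 0.1, and 3 had an unadjusted p under 0.05, against 6.08% of all genes. Their summed value ran from 2315 to 2460 in ki/ki and from 2178 to 2380 in wt/wt. Of 12 markers of disease-associated microglia, 10 were higher, and 2 passed an adjusted p of 0.1, where 0.133% of all genes did. These were Trem2, a lipid receptor (log2 fold change 0.48, limma adjusted p = 0.0393), and Itgax, an integrin subunit (1.26, limma adjusted p = 0.0681). Itgax had few reads, with values of 6 to 10 in ki/ki and 1 to 7 in wt/wt, so its fold change is uncertain. The summed value of the 12 markers ran from 1264 to 1403 in ki/ki and from 1210 to 1308 in wt/wt. The abundant markers weigh most in this sum: in ki/ki, Axl ran from 460 to 537 and Trem2 from 64 to 97. No marker of either list was at 0 in any mouse. In the ki/ki mouse 3, where Laptm5 was at 980, the homeostatic and disease-associated sums were 2449 and 1345, within the range of the other ki/ki mice. Single markers of this mouse went both ways. It had the highest value of all 16 mice for Tyrobp (85), an adaptor of Trem2, and Gpnmb (58), a membrane glycoprotein of the second list. The same held for Cd68 (83), described further on. From the second list, it had the lowest ki/ki value for Itgax (6) and Cst7 (8), and the lowest of all 16 mice for Cd9 (205). The part of these markers in the Laptm5 and Hexa values was not tested.

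The remaining membrane proteins showed smaller estimates. Lamp1, a major glycoprotein of the lysosomal membrane, ran from 1794 to 1979 in ki/ki (median 1915) and from 1789 to 2007 in wt/wt (median 1848), with a log2 fold change of 0.028 ± 0.024 (limma adjusted p = 0.917). The wt/wt range enclosed the ki/ki range, and the 95% interval ran from −1.45% to 5.45%. Lamp2, its relative that also serves chaperone-mediated autophagy, was at 0.032 ± 0.028 and Scarb2, the receptor that carries glucocerebrosidase to lysosomes, at 0.021 ± 0.026. The tetraspanin gene Cd63 was at 0.066 ± 0.054, with 15.9% of its transcript words of 31 bases also found in other genes, mainly in its pseudogene. Laptm4a and Laptm4b, relatives of Laptm5, were at 0.0050 ± 0.028 and 0.024 ± 0.037, the latter with 11.1% shared words. Mcoln1, the calcium channel of the lysosomal membrane, was at −0.011 ± 0.036. Tmem192, used to isolate lysosomes, had the lowest estimate, with ki/ki from 97 to 118 (median 110), wt/wt from 93 to 125 (median 115), and −0.032 ± 0.075 (adjusted p = 0.978).

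**Figure D3:**
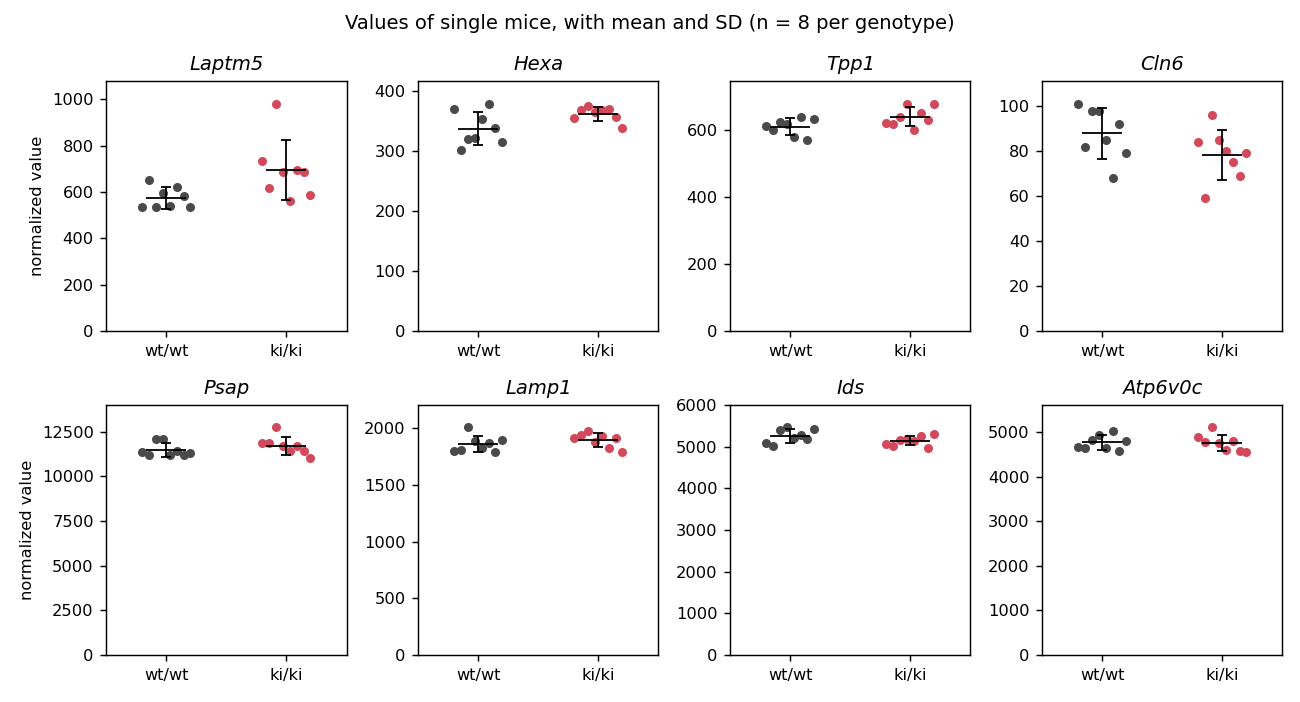
Normalized values of single mice for 8 of the 51 genes, with wt/wt on the left and ki/ki on the right of each panel. The y axes start at 0, and bars give the mean and SD of 8 mice. The ki/ki mouse at 980 stands out for Laptm5, whereas the genotypes overlap widely for Psap, Lamp1, Ids and Atp6v0c.

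The CLN transmembrane proteins showed no common direction. Cln6, which helps lysosomal enzymes leave the endoplasmic reticulum, had the lowest estimate of all 51 genes: ki/ki ran from 59 to 96 (median 79.5) and wt/wt from 68 to 101 (median 88.5), a log2 fold change of −0.17 ± 0.093 (limma p = 0.0817, adjusted p = 0.875; exact permutation p = 0.117). Cln8, its partner in that transport, was at −0.00064 ± 0.046 and Cln3, a lysosomal membrane protein, at 0.078 ± 0.083.

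The V-ATPase genes had the narrowest intervals of the classes, with a median SE of 0.0244 against 0.0459 for the soluble hydrolases. They were also more abundant, with a median of 672 against 60.8 per kb of exons in wt/wt. The part of abundance in the narrow intervals was not tested. Their median coefficient of variation in wt/wt was 3.63%, against 2.37% expected from counting alone. All 14 intervals lay within ±0.1, estimates ran from −0.038 to 0.0043, and the adjusted p of no gene was under 0.895. Estimates were below 0 for 11 of 14 genes with a median of −0.0050, but for 9 of 14 when libraries were scaled to equal totals and for 6 of 14, with a median of 0.0011, after quantile normalization. The direction of the class therefore changed with the scaling. With single mice left out, 13 of 14 lay below 0 without the ki/ki mouse 3 (median −0.020) and 8 of 14 without the wt/wt mouse 3 (median −0.00095). Of the V0 sector in the membrane, Atp6v0c, the proton-carrying ring subunit, ran from 4556 to 5108 in ki/ki (median 4766) and from 4576 to 5025 in wt/wt (median 4740.5), a log2 fold change of −0.0038 ± 0.020 (limma adjusted p = 0.99) that turned to 0.011 after quantile normalization. Atp6v0a1, the form of the large a subunit found in neurons, was at −0.034 ± 0.026, Atp6v0d1, which couples the membrane ring to the stalk, at −0.029 ± 0.026, and Atp6v0b, another ring subunit, at −0.0057 ± 0.034.

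Of the V1 sector, which hydrolyses ATP, the catalytic subunit gene Atp6v1a was at −0.023 ± 0.019 and Atp6v1b2, encoding the other subunit of the catalytic ring, at −0.0040 ± 0.018. Atp6v1h, a regulatory subunit, ran from 1298 to 1455 in ki/ki (median 1318) and from 1262 to 1375 in wt/wt (median 1339.5), with 0.0037 ± 0.026 (limma adjusted p = 0.992). Atp6v1g2, the neuronal form of a stalk subunit, was at −0.030 ± 0.023. The stalk subunit genes Atp6v1c1, Atp6v1d, Atp6v1e1 and Atp6v1f lay between −0.013 ± 0.041 (Atp6v1f) and 0.00054 ± 0.024 (Atp6v1e1). The accessory gene Atp6ap1 had the highest estimate of the class, with 2292 to 2585 in ki/ki (median 2382.5), 2315 to 2592 in wt/wt (median 2364.5), and 0.0043 ± 0.023 (adjusted p = 0.99). The other accessory gene, Atp6ap2, also known as the prorenin receptor, had the lowest, with 1538 to 1647 in ki/ki (median 1614), 1551 to 1730 in wt/wt (median 1657.5), and −0.038 ± 0.025 (adjusted p = 0.895). No ki/ki mouse lay above the wt/wt median of Atp6ap2. Of 9 neuron markers, 8 had lower means in ki/ki, none at an adjusted p under 0.1, and their summed value ran from 64668 to 67423 in ki/ki and from 64895 to 69411 in wt/wt. Of 9 astrocyte markers, 8 were higher and 3 passed (Gfap, Aqp4 and Slc1a2), where 0.133% of all genes did. Their sums ran from 65161 to 67558 in ki/ki and from 61516 to 64933 in wt/wt, which did not overlap. Slc1a2 made up most of these sums, at 44657 to 46722 in ki/ki and 42299 to 45369 in wt/wt, and its own ranges overlapped. The part of these cell types in the values of the lysosomal genes was not tested.

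Fold changes were also set beside the promoter windows. Of the 13 genes with CACGTG, 6 had higher and 7 lower estimates in ki/ki (median −0.0057), and of the 31 with a window but no match, 20 were higher and 11 lower (median 0.020). Estimates of the 13 ran from −0.029 (Atp6v0d1) to 0.11 (Sgsh). These are descriptions of lists, without a test. Laptm5 and Hexa had no match.

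**Figure D4:**
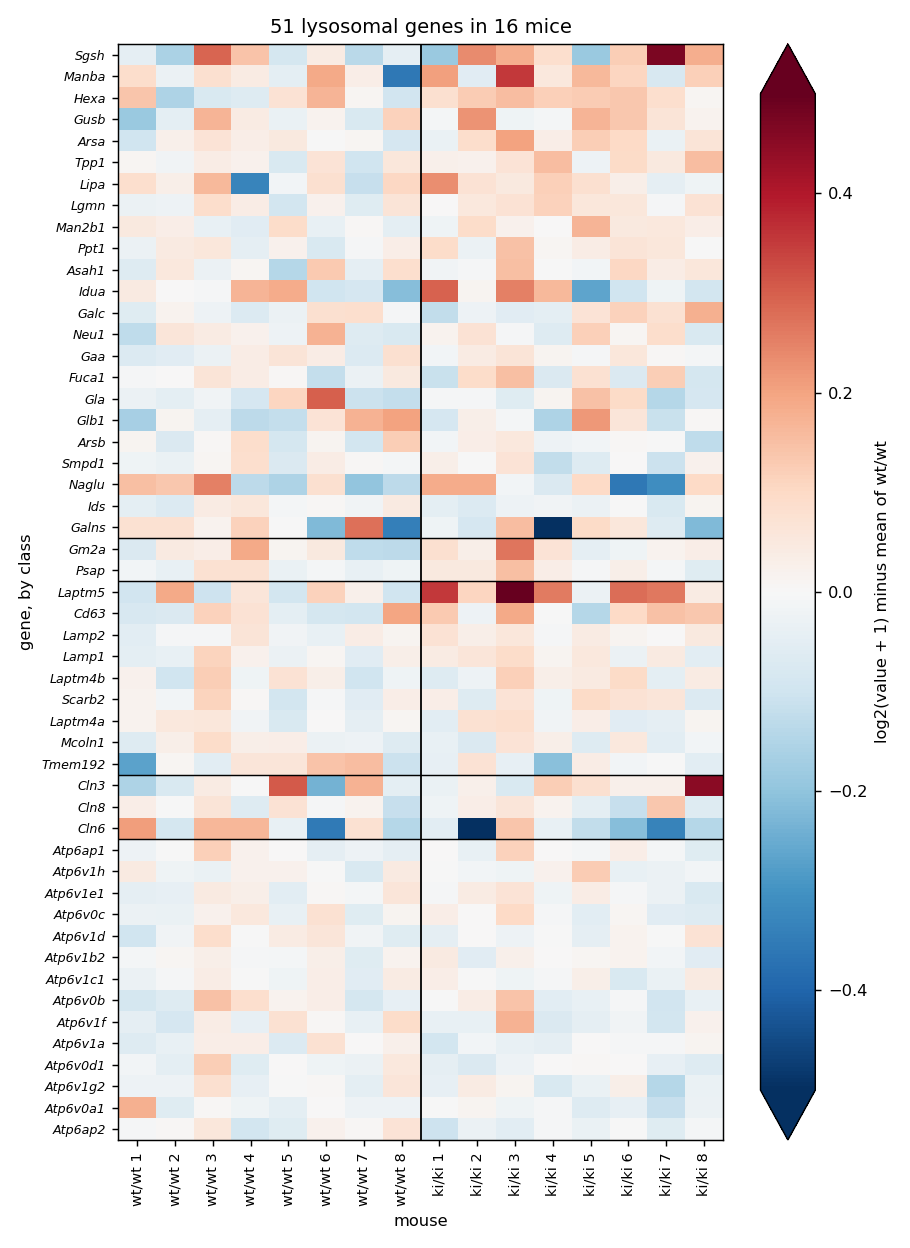
Deviation of each of the 51 genes (rows, by class) in each of the 16 mice (columns) from the wt/wt mean, as log2(value + 1), with red higher and blue lower. Laptm5 is red in most ki/ki columns, and mouse 3 of both genotypes is red over many rows, whereas most V-ATPase rows are pale.

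Levels were compared between genes per kb of exons in wt/wt, with the exons of all annotated transcripts of a gene merged. Psap was the most abundant member, with 4182.6 ± 140 normalized values per kb (SD, n = 8), and Sgsh the least abundant, with 15.0 ± 1.68. The classes differed in level: the median per kb was 60.8 for the soluble hydrolases, 152 for the membrane proteins and 672 for the V-ATPase. Among the hydrolases, Ids led with 1030.5 ± 32.0, followed by Gaa, acid alpha-glucosidase, with 650.4 ± 27.9. Among membrane proteins Lamp1 led with 695.5 ± 27.0 and Tmem192 came last with 64.4 ± 6.11. Among V-ATPase genes Atp6v0c led with 1409.8 ± 46.6 and Atp6v1h came last with 136.7 ± 3.98. The merged exons of Atp6v1h hold 9746 bases and those of Atp6v1f 1063, so the last place of Atp6v1h rests partly on its length. Neighbours in the order of levels had overlapping ranges over the 8 mice in 14 of 22 pairs of hydrolases, 4 of 8 pairs of membrane proteins and 7 of 13 pairs of V-ATPase genes. Atp6v0c shared 11.9% of its 31-base words with other genes, and Atp6v1f, a V1 subunit gene, 18.4%, so that their levels are uncertain.

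**Figure D5:**
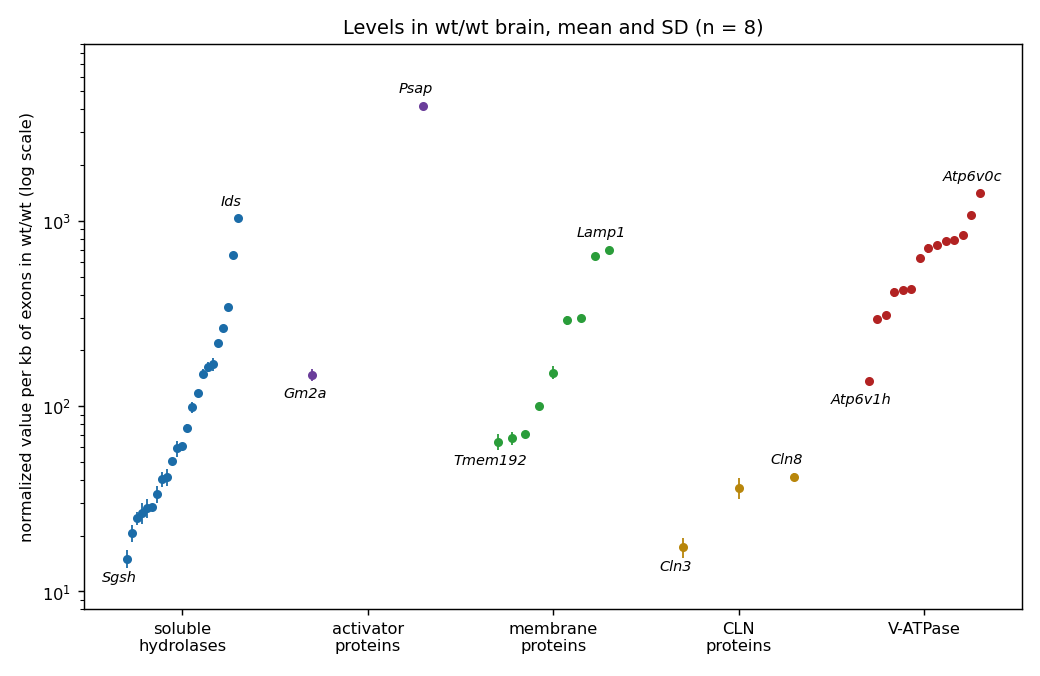
Normalized value per kb of exons in wt/wt brain for the 51 genes, by class, on a log axis (mean and SD, n = 8; the highest and lowest gene of each class are named). Psap lies above all other genes, and the V-ATPase genes lie between Atp6v1h at 136.7 and Atp6v0c at 1409.8.

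Among other genes of the lysosomal system, Cd68 rose. Of 83 further genes, 75 were tested, with 35 higher and 40 lower in ki/ki and a median log2 fold change of −0.0055. One passed an adjusted p of 0.1. Cd68, a lysosomal membrane glycoprotein of macrophages and microglia, was the one that passed. Its ki/ki values ran from 52 to 83 (median 62.5) and its wt/wt values from 34 to 55 (median 44.5), with 6 of 8 ki/ki mice above every wt/wt mouse. Its log2 fold change was 0.49 ± 0.11 (limma adjusted p = 0.0431), and it did not pass without mouse 3 of both genotypes (adjusted p = 0.1). It also failed to pass with single mice left out: ki/ki mouse 1 (0.103), 3 (0.155) or 8 (0.112), and wt/wt mouse 1 (0.153) or 6 (0.129).

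The regulators showed no change that passed the adjusted threshold. The 14 tested genes had 6 higher and 8 lower estimates. None had an unadjusted limma p under 0.05, against 6.08% of all genes. By the exact permutation test 1 of the 14 had a p under 0.05, against 5.77% of all genes. Tfeb, the best known transcription factor of lysosomal genes, ran from 122 to 152 in ki/ki (median 144) and from 125 to 184 in wt/wt (median 139.5), with −0.043 ± 0.073. Tfe3, its relative, was at −0.016 ± 0.045. Of the 7 genes that sort enzymes to the lysosome by mannose 6-phosphate and related routes, 2 were higher and 5 lower. Further V-ATPase and assembly genes were lower for 16 of 18, with a median of −0.024 and none at an unadjusted p under 0.05. Of all genes 50.5% were lower. The count for this list was not taken under the other scalings, which changed the direction of the V-ATPase class.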

How the data were processed

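RNA from the brains of 16 mice, 8 per genotype, had been sequenced as stranded total RNA after removal of ribosomal RNA. Per the submitters' notes and the study's methods, reads were trimmed (Trim Galore 0.6.10, cutadapt 3.4), aligned to GRCm39 with STAR 2.7.10b, counted per gene with summarizeOverlaps and tested by the authors with DESeq2 1.40.2. The deposited values are a score: linear normalized values rounded to whole numbers by the authors, whose normalization is not named, with totals of 11964284 to 12252324 per mouse. They are not counts, so no count test was run. Library factors (0.771 to 1.278) were estimated from gaps and repeats among the rounded values, which gave 9.23 to 15.39 megareads on genes.

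Genes summing to more than 16 and above 5 in at least 4 mice of a genotype were tested (23244). log2(value + 1) was fitted on genotype with limma 3.58.1 in R 4.3.3 (trend and robust moderation), with Benjamini-Hochberg adjustment over all of them and thresholds of 0.1 adjusted and 0.01 unadjusted. A fold change on this scale understates that of low genes. Exact two-sided permutation tests used all 12870 splits (smallest possible p 0.000155). On simulated data with 200 genes changed by 0.5 (log2), the fit recovered 200 and called 21 of 23014 unchanged genes. The changed genes were drawn from those with a mean value above 200. This recovery therefore does not cover the lower members, such as Sgsh, or changes smaller than 0.5. The p-values set the difference between genotypes against the spread between these mice, taken as independent. The labels do not say how the mice are related, so that could not be checked.

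Symbols, exon lengths and 31-base words shared between transcripts came from GENCODE M21 of GRCm38, promoters from RefSeq GRCm38.p6. That is an earlier build than the one used for alignment, so per-kb levels are approximate. Exon lengths merge all annotated transcripts of a gene, whichever are made in brain, which also affects the order of levels. Promoters were found for 44 of 51 genes, and protein features were not analysed here. The members and lists were chosen with earlier results of these data known. Genes are named with full values when their limma p was under 0.05, when they had the highest or lowest fold change or level per kb of the hydrolases, membrane proteins or V-ATPase, or, for other lysosomal genes, at p under 0.01. An item that this rule would name is left out of the lists and not reported here. Cln6, Tpp1, Psap, Gm2a and Tfeb were given in more detail after their values had been seen. Arsg, Tpcn1, Npc1, Grn and Tfe3 were also named outside this rule. Python 3.11.15, numpy 2.4.6, pandas 2.3.3, scipy 1.17.1 and matplotlib 3.10.9 were used.

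The alternatives were pseudocounts of 0.5 and 5, no filter, scaling to equal totals, scaling by a trimmed mean of M-values (TMM), quantile normalization, moderation without the robust option, the replicate number as a block, and each mouse left out. Leaving out mouse 3 of both genotypes together was chosen later, with the data in view.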

Additional observations from a re-analysis of the deposited data

Results flagged for a closer look

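In 9 of 106 groups of 8 mice (51 lysosomal genes and Tecpr2 and Cd68, each genotype apart), the highest or lowest mouse lay further from its neighbour than Dixon's 95% criterion allows. Chance flags about 1 in 20 groups, or 5%.

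In ki/ki, mouse 3 was the highest for Laptm5 (980, next 732), Gm2a (731, next 642) and Atp6v1f (506, next 455). Mouse 8 of ki/ki was the highest for Cln3 (136, next 108) and the lowest for Arsb (826, next 885). Mouse 5 of ki/ki was the highest for Atp6v1h (1455, next 1352). In wt/wt, the highest mice were mouse 1 for Atp6v0a1 (5283, next 4681) and mouse 3 for Atp6ap1 (2592, next 2427), and mouse 7 was the lowest for Atp6v1b2 (4264, next 4413). With its mouse at 980 left out, Laptm5 had a log2 fold change of 0.18, and Atp6v1h without its mouse at 1455 turned from 0.0037 to −0.014.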

How the results depend on the processing

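No member passed an adjusted p of 0.1 under any of the 9 other settings or with any single mouse left out. The count at an unadjusted p under 0.01 was 0, but 1 (Laptm5) without robust moderation and 0 to 1 with single mice left out: Laptm5 passed without ki/ki mouse 3 or 5, and Hexa without wt/wt mouse 6. Over all alternatives the adjusted p of Laptm5 ran from 0.183 to 0.845 and that of Hexa from 0.667 to 0.911. The medians of the hydrolases (0.024 to 0.040) and of the membrane proteins (0.013 to 0.036) stayed above 0 under the alternatives. Atp6v0c changed sign with equal totals (0.00013) and quantile normalization (0.011), and ran from −0.018 to 0.0070 with single mice left out, as did Atp6ap1 from −0.011 to 0.021 and Atp6v1h from −0.014 to 0.010. The cause was not tested. Cd68 had an adjusted p of 0.108 without the filter and 0.0191 to 0.155 over all alternatives. Genotypes shared replicate numbers. Deviations of same-numbered mice from their group means had correlations of −0.050 to 0.15, over 0.1 in 1 of 8 pairs. Of the ki/ki mice, 2 of 8 correlated best with their own number. Mouse 3 of both genotypes tended to high values for the members, as given above. With the replicate block, 46 rather than 31 of all genes passed an adjusted p of 0.1 and 419 rather than 362 an unadjusted p of 0.01, with 0 members either way. Without the filter, 20 and 515 of 41926 genes passed. The lowest members have few reads: Sgsh at about 66 had an interval of −5.56% to 23.9%, so that changes of that size were not detectable.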

Other observations

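Values of the 51 genes differed little between mice of one genotype. The median coefficient of variation over the 8 wt/wt mice was 4.33%, against 3.98% expected from counting alone at these depths, and it ran from 1.99% (Atp6v1b2) to 13.3% (Galns). Laptm5 varied more in ki/ki (18.7%) than in wt/wt (8.01%), and Hexa less (3.15% and 8.21%). No test of these spreads was run.

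Of the further hydrolase genes, Arsg, a lysosomal sulfatase, was at −0.13 on the log2 scale (limma adjusted p = 0.666), and of the further membrane proteins Tpcn1, a channel of endolysosomes, was at 0.079 (limma adjusted p = 0.772). Neither passed the adjusted threshold, nor the unadjusted p of 0.01 by which such genes are named. Of the 75 further genes tested, 3 had an unadjusted limma p under 0.05, against 6.08% of all genes. Npc1, which exports cholesterol from lysosomes, was at 0.015 and Grn, the progranulin gene, at 0.014.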
